A study of Mus musculus with 9 samples.

Results

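Genes of the interferon response and of class I antigen presentation were examined in the colon of wild-type C57BL/6N female mice aged 12 months. Interferons are secreted when a cell senses foreign or misplaced nucleic acid. Type I interferon binds a receptor made of the Ifnar1 and Ifnar2 chains, and the signal reaches the nucleus through a complex that holds Stat2 and Irf9 and switches on a large set of antiviral genes. Interferon also raises the immunoproteasome, the Tap transporter and the class I molecules, which cut, carry and display peptides to T cells. In the gut the epithelium keeps part of this program on at rest, and the microbiota is known to set its level.

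The 43 genes were taken by symbol from a list of interferon-induced and class I genes, and each was found among the 22262 genes that had a count in some library. They fell into 7 groups by role, with 2 receptor chains, 4 transcription factors, 6 nucleic acid sensors or oligoadenylate synthetases, 15 other interferon-induced effectors, 5 interferon-inducible GTPases, 5 immunoproteasome genes and 6 genes of class I molecules and peptide loading. All 43 passed the filter of at least 4 CPM (counts scaled to a common library size) in at least 1 library, which left 17441 genes to test. Each had more than 3 counts in at least 1 mouse, and 37 of them did in every mouse.

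The standard environment group (WT_SE) comprised 4 wild-type mice, numbered 1, 2, 3 and 5, kept 3 to 4 to a standard cage. The enriched environment group (WT_EE) comprised 5 wild-type mice, numbered 1 to 5, kept 8 to a larger cage with running wheels, tunnels and objects, under a condition that the sample labels call enhanced. Which mice shared a cage is not given in the sources used here. The comparison asks how the environment relates to gene expression in the colon, and all 9 mice were wild type. A piece of 2 to 3 cm of upper colon was rinsed and frozen whole, so each library mixes epithelium, muscle, immune cells and any attached fat. In such bulk tissue, fewer cells of a type and less RNA per cell cannot be told apart.

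The libraries read the 3′ ends of messenger RNA and carried unique molecular identifiers, so that each count stands for a molecule and does not grow with transcript length. Totals ranged from 299062 to 383401 counts in WT_SE and from 295535 to 454043 in WT_EE. A level of 3 counts, taken as the floor, equalled 6.61 to 10.2 CPM. The markers of colon epithelium summed to between 1653 and 2443 CPM in every mouse. The library names of WT_SE mice 1 and 3 end in L3 and those of the other 7 mice end in L2, and what the ending stands for is not given in the sources used here. No WT_EE library ends in L3, so only WT_SE mice 2 and 5 allow a difference tied to that ending to be separated from the environment. Because the interferon-induced genes divided the WT_SE mice along this ending, the results below are given with and without mice 1 and 3.

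The DNA letters through which interferon acts are shown first. The complex that holds Stat2 and Irf9 binds the interferon-stimulated response element (ISRE), and the gamma-activated site (GAS) is the element of the interferon gamma response. RefSeq promoter windows on GRCm38.p6, from 250 bases before to 50 bases after the start, were found for 37 of the 43 genes. The ISRE core was searched as GAAANNGAAA on both strands. It stood in the windows of 19 of the 37 genes (51.4%), against 3.99% of the 27025 genes searched in the same table. The longer form GAAANNGAAACT, which holds the core within it, stood in 11 of 37 (29.7%) against 0.303%, and the GAS letters TTCNNNGAA in 11 of 37 (29.7%) against 9.55%. By role, the core was present in all 5 GTPases, 4 of 5 sensors or synthetases with a window, 7 of 11 other effectors, 1 of 4 transcription factors, 1 of 5 immunoproteasome genes and 1 of 5 class I and peptide loading genes. A match is a description of the letters and not a bound site. The genes were listed as interferon-induced or class I genes, so their share of matches says nothing of these mice.

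Windows around the core are shown for 5 genes that separated the WT_SE mice and for 3 genes that did not. Each runs 5′ to 3′ on the gene's own strand, and capitals mark the letters of the core on either strand.
Isg15 (chr4:156200850-156200921, minus strand): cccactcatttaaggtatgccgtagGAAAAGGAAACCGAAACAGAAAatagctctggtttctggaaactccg
Ifit3 (chr19:34583348-34583441, plus strand): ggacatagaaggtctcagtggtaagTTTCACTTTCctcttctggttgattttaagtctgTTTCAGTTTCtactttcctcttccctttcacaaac
Bst2 (chr8:71537562-71537627, minus strand): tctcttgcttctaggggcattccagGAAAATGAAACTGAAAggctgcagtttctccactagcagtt
Stat2 (chr10:128270251-128270310, plus strand): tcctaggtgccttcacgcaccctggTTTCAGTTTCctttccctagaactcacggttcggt
Rsad2 (chr12:26456538-26456597, minus strand): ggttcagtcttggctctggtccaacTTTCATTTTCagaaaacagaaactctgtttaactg
Gbp2 (chr3:142620579-142620638, plus strand): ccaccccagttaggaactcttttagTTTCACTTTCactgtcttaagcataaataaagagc
Igtp (chr11:58199497-58199556, plus strand): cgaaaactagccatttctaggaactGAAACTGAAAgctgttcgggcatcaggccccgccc
B2m (chr2:122147523-122147582, plus strand): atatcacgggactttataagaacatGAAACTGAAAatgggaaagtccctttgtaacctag

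The 3 overlapping core matches of Isg15 lay from 78 to 57 bases before its start. The printed Ifit3 window is shared letter for letter by its neighbour Ifit3b, and the molecules of such close copies can be split between them by the counting. No core stood in the windows of Ifit2, Ifi44, Irf7, H2-K1, H2-D1, Tap1, Psmb8 or Psmb9.

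Between WT_EE and WT_SE, 10 of the 43 genes were lower and 1 was higher in WT_EE at an unadjusted p-value under 0.05, the limit used in the study. The genes that fell were the transcription factors Stat2 and Irf7, the sensors Ifih1 and Zbp1, the effectors Ifit2, Ifit3, Usp18, Bst2 and Parp14, and the GTPase Igtp. The gene that rose was Tap2, a chain of the peptide transporter. Of all 17441 genes, 7.65% were called in either direction, 3.34% lower and 4.31% higher. The median log2 fold change of the 43 genes was -0.25, with 30 below 0 and 13 above, against a median of 0.01 over all genes. After Benjamini-Hochberg adjustment over all genes with edgeR, none of the 43 had an adjusted p under 0.05, and the smallest was 0.222, for Tap2. DESeq2 and limma-voom also gave 0 such genes. In 0 of the 43 genes did the values of the groups lie apart without overlap, against 2.58% of all genes. With upper quartile normalization, 615 of all genes were called higher and 753 lower, where the TMM normalization used here gave 751 and 583.

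For 8 of the 10 genes that fell, all but Parp14 and Igtp, WT_SE mice 1 and 3 both stood above all 7 other mice, to which their selection as lower in WT_EE contributes. With the 7 mice whose libraries end in L2, 0 of the 43 genes were called lower and 3 were called higher (Ifit1, Isg15 and Tap2), where 1.5% and 2.47% of 17097 genes were called in these directions. The median of the 43 genes was then 0.11. With the ending as a covariate in all 9 mice the counts were the same, 0 and 3, for these same 3 genes, and the median was 0.10. This is no second test, because no WT_EE library ends in L3 and both fits take the environment effect from the same 7 mice. Without WT_SE mouse 1 alone 2 genes were called lower, without mouse 3 alone 1, and without mouse 2 alone 16. Over all genes, 483 of 17258, 346 of 17306 and 619 of 17217 were called lower in these fits, in the same order. The library ending and the 2 mice behind it cannot be told apart.

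**Figure D1:**
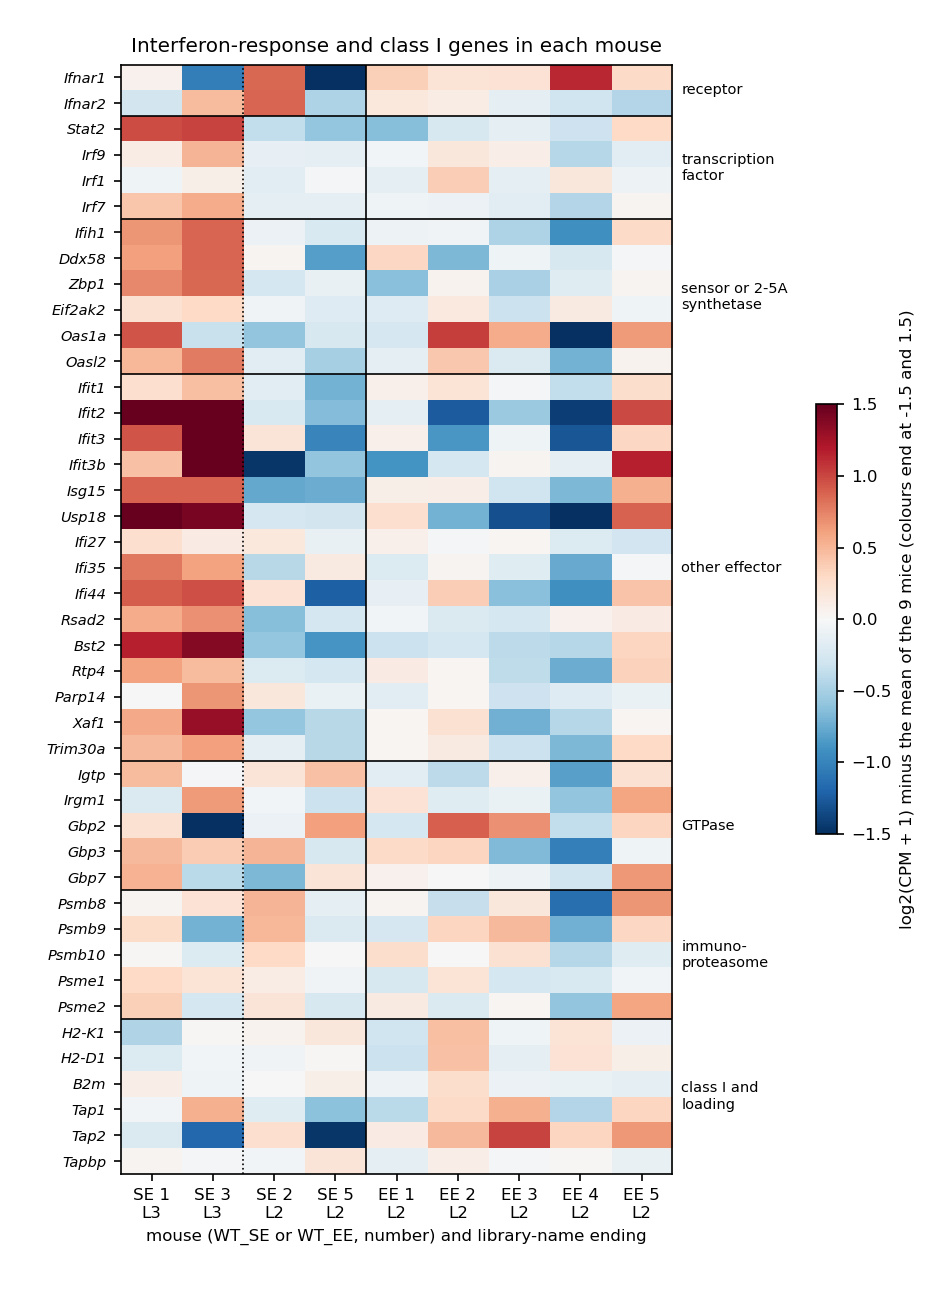
Each row is a gene and each column a mouse, and colour gives log2(CPM + 1) minus the gene's mean over the 9 mice. WT_SE mice 1 and 3 are red for most genes of the transcription factor, sensor and other effector groups, where mouse 3 was the highest of 9 mice for 3, 5 and 11 genes, while the class I group shows no such block.

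The receptor chains were counted at low levels and neither was called. Ifnar1 read 15.7, 27.8, 6.76 and 2.73 CPM in WT_SE mice 1, 2, 3 and 5, and 19.4, 17.4, 17.5, 34.0 and 18.5 CPM in WT_EE mice 1 to 5. WT_SE mice 3 and 5 did not exceed the floor of 3 counts and WT_EE mouse 4 was the highest, with overlap between the groups. The log2 fold change of Ifnar1, WT_EE over WT_SE, was 0.63 ± 0.46 (standard error here and below), with an unadjusted p of 0.180 and an exact permutation p of 0.183. Ifnar2 read 15.7, 36.2, 27.1 and 13.7 CPM in WT_SE and 21.6, 20.9, 17.5, 15.5 and 13.9 CPM in WT_EE, so that the groups overlapped throughout. For Ifnar2 it was -0.35 ± 0.39. Of the interferons themselves, Ifnb1, Ifna4, Ifnk, Ifnl2 and Ifnl3 had no count in any mouse and Ifng had 1 count, in WT_EE mouse 5, and such levels are at or under the floor.

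Among the transcription factors, Stat2, a subunit of the complex that binds the ISRE, was counted in WT_SE mice 1 and 3 at 115 and 118 CPM and in WT_SE mice 2 and 5 at 44.6 and 38.3 CPM. In WT_EE mice 1 to 5 it read 36.7, 48.8, 52.5, 46.4 and 71.7 CPM. Mice 1 and 3 thus lay above every other mouse, and mice 2 and 5 lay within the range of WT_EE. Over all mice the log2 fold change of Stat2 was -0.60 ± 0.28 (unadjusted p of 0.0381, exact permutation p of 0.278), and with the L2 libraries alone it was 0.32 ± 0.33. Irf7, the interferon-induced factor that amplifies interferon production, read 258 and 284 CPM in WT_SE mice 1 and 3 and 175 CPM in each of mice 2 and 5. In WT_EE it read 184, 181, 173, 142 and 199 CPM, again below mice 1 and 3 in every mouse. The change of Irf7 was -0.33 ± 0.16 on the log2 scale and became 0.02 ± 0.18 with the L2 libraries. Irf1, the most highly counted of the group, read 251, 234, 277 and 257 CPM in WT_SE and 235, 338, 236, 294 and 248 CPM in WT_EE. It was not called (log2 fold change 0.07 ± 0.14), and neither was Irf9, the DNA-binding subunit of the complex (-0.16 ± 0.17).

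Among the sensors, Ifih1, which detects long double-stranded RNA in the cytosol, was counted in WT_SE mice 1 and 3 at 235 and 271 CPM and in mice 2 and 5 at 139 and 125.7 CPM. WT_EE mice 1 to 5 gave 140.3, 143, 107, 77.3 and 180.5 CPM. The L3 mice were the highest and WT_EE mouse 4 the lowest of the 9. The log2 fold change was -0.55 ± 0.20 (unadjusted p of 0.00969, exact permutation p of 0.159) and -0.01 ± 0.23 with the L2 libraries. Zbp1, a sensor of left-handed nucleic acid that can trigger cell death, read 123 and 135 CPM in WT_SE mice 1 and 3 and 61.3 and 68.3 CPM in mice 2 and 5. In WT_EE it read 47.5, 76.7, 52.5, 64.9 and 76.4 CPM, around the level of mice 2 and 5. Zbp1 changed by -0.61 ± 0.23 on the log2 scale over all mice and by -0.04 ± 0.28 with the L2 libraries. The sensor Ddx58, the kinase Eif2ak2 and the oligoadenylate synthetase family genes Oas1a and Oasl2 were not called, with log2 fold changes between -0.37 and 0.20.

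The other effectors held 5 of the 10 lower calls and the largest decreases. Usp18, the protease that removes Isg15 from proteins and damps the receptor, was counted at 80.9 and 64.3 CPM in WT_SE mice 1 and 3 and at 19.5 and 19.1 CPM in mice 2 and 5. In WT_EE it read 28.1, 13.9, 8.74, 6.19 and 44.0 CPM, with mouse 4 at or under the floor and mouse 5 the highest. The log2 fold change was -1.10 ± 0.42 (unadjusted p of 0.0123, exact permutation p of 0.159) and 0.14 ± 0.55 with the L2 libraries. Ifit2 and Ifit3 encode members of a family that binds viral RNA and blocks its translation. Ifit2 read 78.3 and 87.9 CPM in WT_SE mice 1 and 3, 22.3 and 16.4 CPM in mice 2 and 5, and 23.7, 10.5, 17.5, 9.28 and 53.2 CPM in WT_EE. Ifit3 read 75.7 and 129 CPM, 44.6 and 19.1 CPM, and 41.0, 20.9, 37.2, 15.5 and 48.6 CPM in the same order. In both genes WT_EE mouse 5 was the highest and mouse 4 the lowest of its group, and for Ifit2 WT_EE mice 2 and 4 were at the floor of 3 counts. Their log2 fold changes were -1.05 ± 0.41 and -0.93 ± 0.34 over all mice, and 0.32 ± 0.53 and 0.11 ± 0.41 with the L2 libraries.

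Bst2, or tetherin, which holds budding virus at the cell surface, read 104 and 122 CPM in WT_SE mice 1 and 3 and 30.6 and 24.6 CPM in mice 2 and 5. In WT_EE it read 36.7, 38.3, 35.0, 34.0 and 57.8 CPM, and every one of these lay above WT_SE mice 2 and 5 and below mice 1 and 3. For Bst2 the log2 fold change was -0.76 ± 0.32 over all mice (unadjusted p of 0.0245, exact permutation p of 0.302) and 0.57 ± 0.37 with the L2 libraries, for which the unadjusted p was 0.137. Parp14, an ADP-ribosyltransferase, read 188, 212, 298 and 175 CPM in WT_SE and 168, 192, 151, 164 and 176 CPM in WT_EE, and here WT_SE mouse 3 alone stood out. For Parp14 it was -0.35 ± 0.15 over all mice, with an exact permutation p of 0.0556, and -0.18 ± 0.18 with the L2 libraries.

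Isg15, the ubiquitin-like protein that is joined to other proteins under interferon, and Ifit1, the most highly counted effector, were not called over all mice and were called higher with the L2 libraries. Isg15 read 229.7 and 230.0 CPM in WT_SE mice 1 and 3, 72.4 and 73.8 CPM in mice 2 and 5, and 132, 132, 101, 77.3 and 180.5 CPM in WT_EE. All 5 WT_EE mice lay between the pairs of WT_SE mice. Its log2 fold change was -0.26 ± 0.25 over all mice and 0.79 ± 0.27 with the L2 libraries (unadjusted p of 0.00621). Ifit1 read 266 and 304 CPM, then 200.5 and 137 CPM, then 235, 258, 219, 173 and 268 CPM in the same order. Its log2 fold change was 0.04 ± 0.17 over all mice and 0.47 ± 0.20 with the L2 libraries (unadjusted p of 0.0260). No adjusted p of the 43 genes with the L2 libraries was under 0.994, and only 2 WT_SE mice stand on that side of the comparison.

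**Figure D2:**
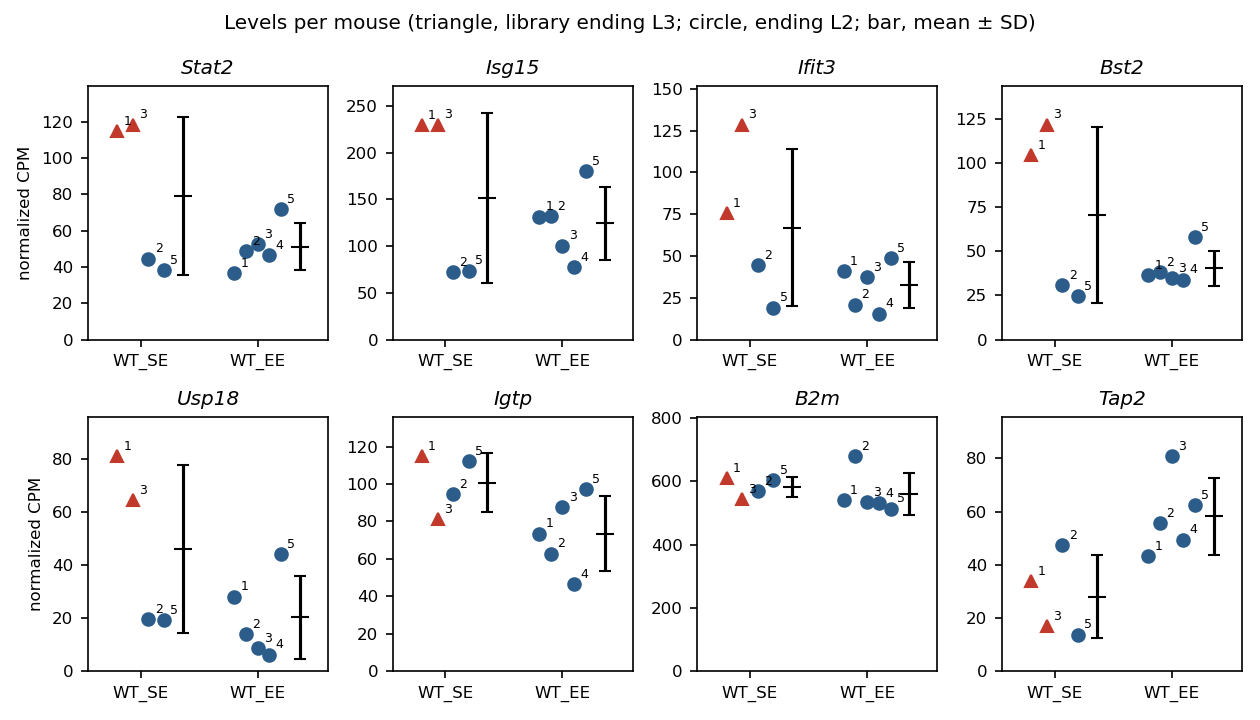
Points give the normalized CPM of 8 genes in each mouse, numbered by mouse, with the mean ± SD of each group beside them. For Stat2, Isg15, Ifit3, Bst2 and Usp18 the red triangles of WT_SE mice 1 and 3 lie above all 7 circles, and for Igtp, B2m and Tap2 they do not.

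The 5 listed interferon-inducible GTPases, of a family that gathers on and ruptures the vacuoles of intracellular microbes, did not divide the WT_SE mice in this way. Igtp read 115, 94.7, 81.2 and 112 CPM in WT_SE mice 1, 2, 3 and 5 and 73.4, 62.7, 87.4, 46.4 and 97.2 CPM in WT_EE. WT_EE mouse 4 was the lowest, and WT_EE mice 3 and 5 overlapped with WT_SE. Its log2 fold change was -0.43 ± 0.21 over all mice (unadjusted p of 0.0436, exact permutation p of 0.0794) and -0.45 ± 0.26 with the L2 libraries, where it was not called. Igtp overlaps Irgm2 on the same strand over 7974 bases, and the counts of these neighbours may be shared. Irgm2 was called in the other direction, higher in WT_EE. The 4 other GTPases, Irgm1, Gbp2, Gbp3 and Gbp7, were not called, with log2 fold changes between -0.46 and 0.33.

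None of the 5 immunoproteasome genes was called. Psme1, a subunit of the activator that opens the proteasome and the most highly counted of them, read 219, 192, 206 and 172 CPM in WT_SE and 151, 206, 149, 152 and 174 CPM in WT_EE. Its log2 fold change was -0.26 ± 0.15, with an unadjusted p of 0.0868 and an exact permutation p of 0.0952. The catalytic subunits Psmb8, Psmb9 and Psmb10 and the second activator subunit Psme2 had log2 fold changes between -0.14 and 0.05.

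In the class I group Tap2 rose and no other gene was called. Tap2, on chromosome 17 from 34203527 to 34216321 (GRCm38), pairs with Tap1 to carry peptides into the endoplasmic reticulum. It read 33.9, 47.3, 16.9 and 13.7 CPM in WT_SE mice 1, 2, 3 and 5 and 43.2, 55.8, 80.9, 49.5 and 62.5 CPM in WT_EE. All WT_EE mice lay above WT_SE mice 1, 3 and 5, and WT_SE mouse 2 overlapped with WT_EE. The mean was 28.0 ± 15.7 CPM in WT_SE (SD, n = 4) and 58.4 ± 14.5 CPM in WT_EE (SD, n = 5). This gave a log2 fold change of 1.04 ± 0.31 (unadjusted p of 0.00157, adjusted p of 0.222 from edgeR, exact permutation p of 0.0238, where 0.00794 is the smallest this test can give). It was 0.96 ± 0.38 with the L2 libraries and 0.95 ± 0.38 with the ending as a covariate, which takes the environment effect from the same mice. Within WT_SE the L3 mice differed from the L2 mice by -0.21 ± 0.52. Over 20 alternative fits its adjusted p lay between 0.0487 and 0.996, and it was under 0.05 in 1 of them.

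B2m, the light chain that every class I molecule needs to reach the surface, was the most highly counted of the 43 genes. It read 611, 568, 544 and 604 CPM in WT_SE mice 1, 2, 3 and 5 and 539.7, 679.7, 536, 532 and 514 CPM in WT_EE. WT_EE mouse 2 was the highest and the other mice were close to one another, for a log2 fold change of -0.06 ± 0.13. The class I heavy chains H2-K1 and H2-D1 had log2 fold changes of 0.09 ± 0.15 and 0.13 ± 0.14, Tap1 one of 0.16 ± 0.23, and the loading chaperone Tapbp one of -0.08 ± 0.13. H2-K1 and H2-D1 have near-identical relatives in the same cluster, and how the counting treated reads that fit several genes is not given in the sources used here.

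**Figure D3:**
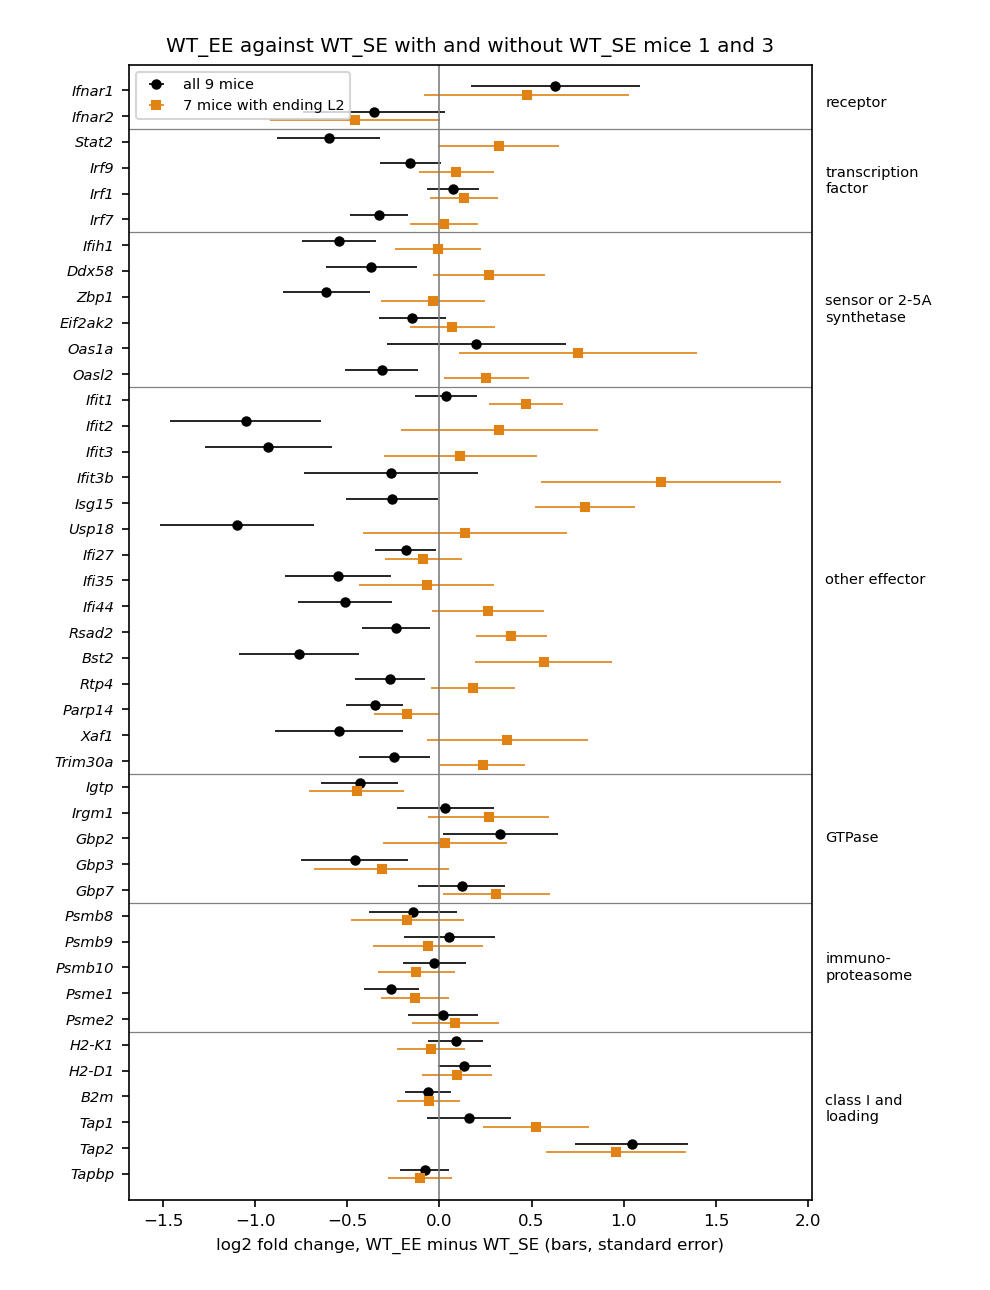
Points give the log2 fold change of WT_EE over WT_SE for each of the 43 genes with its standard error, in black over all 9 mice and in orange over the 7 mice whose libraries end in L2. In the transcription factor, sensor and effector groups most orange squares lie to the right of the black circles, whereas Tap2 lies near 1 in both and B2m near 0.

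Mice 1 and 3 were compared with mice 2 and 5 by the same edgeR test after the split had been seen, so that the values below describe the split and are no independent test of it. Of the 43 genes, 19 were higher in mice 1 and 3 at an unadjusted p-value under 0.05 and 0 were lower, where 2.35% and 2.51% of 16080 genes were called in these directions. They comprised 2 transcription factors, 4 sensors or synthetases and 13 other effectors, and 0 of the 2 receptor, 5 GTPase, 5 immunoproteasome and 6 class I genes. The median log2 difference was 0.46 over the 43 genes and -0.03 over all genes. Counted over the 9 mice, mice 1 and 3 were both above all 7 others for 19 of the 43 genes, against 4.47% of all genes.

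By role, the median log2 difference between mice 1 and 3 and mice 2 and 5 was 1.28 for the other effectors, 0.96 for the sensors and synthetases and 0.54 for the transcription factors. It was 0.26 for the GTPases, -0.09 for the immunoproteasome, -0.09 for class I and peptide loading and -0.31 for the receptor chains. Levels in mice 1 and 3 averaged 4.24 times those in mice 2 and 5 for Ifit2, 4.06 times for Bst2, 3.75 times for Usp18, 3.16 times for Ifit3, 3.15 times for Isg15 and 2.81 times for Stat2. Ifi44 read 243 and 254 CPM in mice 1 and 3 and 150.4 and 54.7 CPM in mice 2 and 5. Rsad2, or viperin, an enzyme that makes a chain-terminating nucleotide against viral polymerases, read 274 and 301 CPM against 119.7 and 156 CPM. For B2m the log2 difference was -0.01 ± 0.16, for H2-K1 -0.31 ± 0.18 and for Gbp2 -0.73 ± 0.44.

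After Benjamini-Hochberg adjustment, edgeR called 41 genes between the WT_SE pairs, 0.255% of those tested, and 8 of them were among the 43: Stat2, Ifit2, Ifit3, Isg15, Usp18, Ifi44, Rsad2 and Bst2. All 8 were higher in mice 1 and 3, with adjusted p-values from 8.35e-05 for Isg15 to 0.0304 for Stat2 and Ifit3. These adjusted calls depend on the fit, as 0 of the 43 genes were called without the filter on low counts, 1 with filterByExpr, 1 with DESeq2 and 5 with limma-voom, while the unadjusted count lay between 17 and 19 in those fits. The test compares these 4 libraries, with 2 mice on each side.

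**Figure D4:**
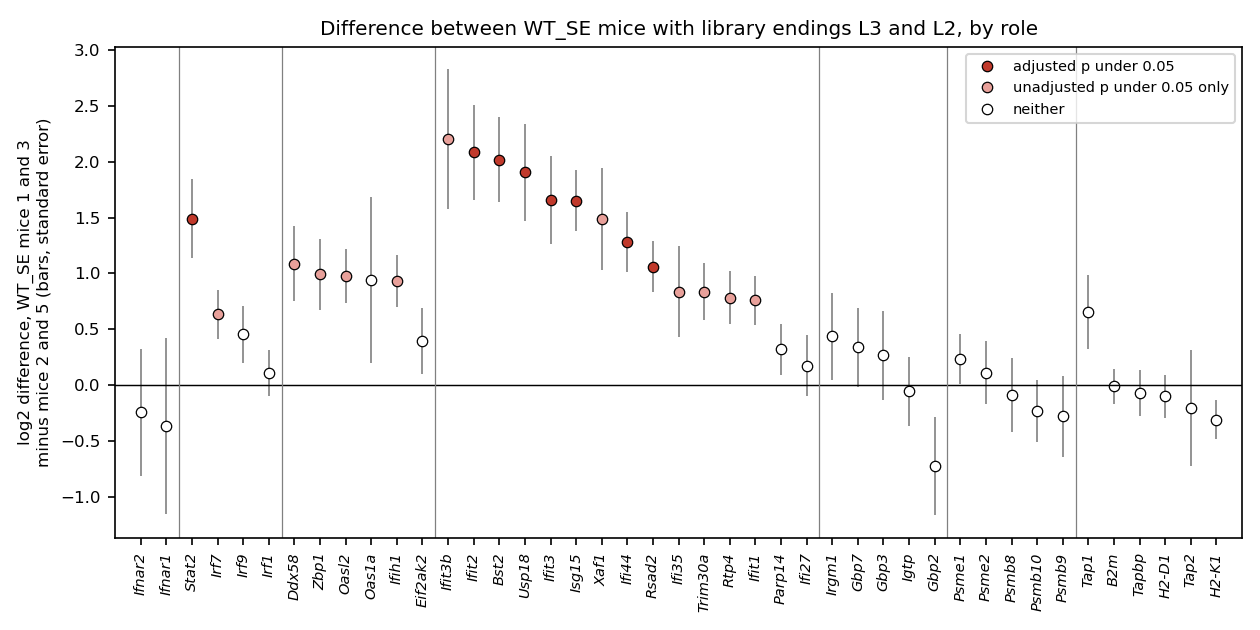
Each point is a gene, grouped by role from the receptor chains on the left to the class I group on the right, and gives the log2 difference of WT_SE mice 1 and 3 from mice 2 and 5 with its standard error. Filled points, called at an unadjusted or adjusted p-value under 0.05, occur in the transcription factor, sensor and effector groups and reach 2.20, and all points of the last 3 groups are open.

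Among the 37 genes with a promoter window, the 19 that hold the ISRE core had a median log2 difference of 0.84 between the WT_SE pairs, from -0.73 to 2.20, and the 18 without it one of 0.11, from -0.37 to 2.09. The ranges overlapped almost fully: Ifit2, without a core in its window, was among the highest, and Gbp2, whose printed window holds one, was the lowest. At an unadjusted p under 0.05 from edgeR, 10 of the 19 with the core and 6 of the 18 without it were higher in mice 1 and 3.

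The fat and colon epithelium sums were higher in both WT_SE mice 1 and 3 than in mice 2 and 5. The macrophage, plasma cell and posterior Hox sums were lower, and the other marker lists overlapped between the pairs. Markers of colon epithelium summed to 2178 and 2443 CPM in mice 1 and 3 and to 1865 and 2053 CPM in mice 2 and 5. No single gene of this list divided the pairs. Aqp8, for one, had 81 and 2 counts in mice 1 and 3 and 17 and 110 in mice 2 and 5. Plasma cell markers summed to 747 and 736 CPM against 760 and 806 CPM, and posterior Hox genes to 139 and 142.5 CPM against 168 and 284 CPM. Igha overlapped, with 130 and 110 counts against 128 and 123. No posterior Hox gene divided the pairs, and mice 2 and 5 differed from each other. Hoxb13 had 4 and 0 counts in mice 1 and 3 against 0 and 56 in mice 2 and 5, and Hoxd10 had 2 and 8 against 22 and 0. The 7 fat markers, all detected, summed to 832 and 261 CPM in WT_SE mice 1 and 3, to 60.6 and 82 CPM in mice 2 and 5, and to 174, 327, 451, 220.5 and 100.5 CPM in WT_EE mice 1 to 5. The 7 B-cell follicle markers summed to 62.0 and 3.39 CPM in mice 1 and 3, 68.9 and 10.9 CPM in mice 2 and 5 and at most 10.9 CPM in WT_EE, with the defining marker Cd79a at 0 in all 9 mice. Macrophage markers summed to 243 and 241 CPM in mice 1 and 3 and to 333 and 295 CPM in mice 2 and 5, against 193 to 326 CPM in WT_EE. Members of this list went different ways. Cx3cr1 had 12 and 12 counts in mice 1 and 3 against 30 and 24 in mice 2 and 5, and C1qc had 16 and 13 against 13 and 10. T cell markers summed to 23.2 and 27.1 CPM in mice 1 and 3 and 52.3 and 19.1 CPM in mice 2 and 5, and dendritic cell markers to 15.5 and 20.4 CPM and to 41.3 and 8.20 CPM. Most genes of the T cell, dendritic cell and B-cell follicle lists were at or under the floor of 3 counts in every WT_SE mouse. Slc10a2, the bile acid transporter of the proximal gut, read 67.2 and 373 CPM in mice 1 and 3 and 284 and 43.7 CPM in mice 2 and 5. The part of any of these in the split was not tested. The L3 libraries detected 16284 and 15649 genes, against 15712 to 17122 in the others, and their share of mitochondrial counts was 0.611% and 0.691%, against 0.520% to 0.762%.

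**Figure D5:**
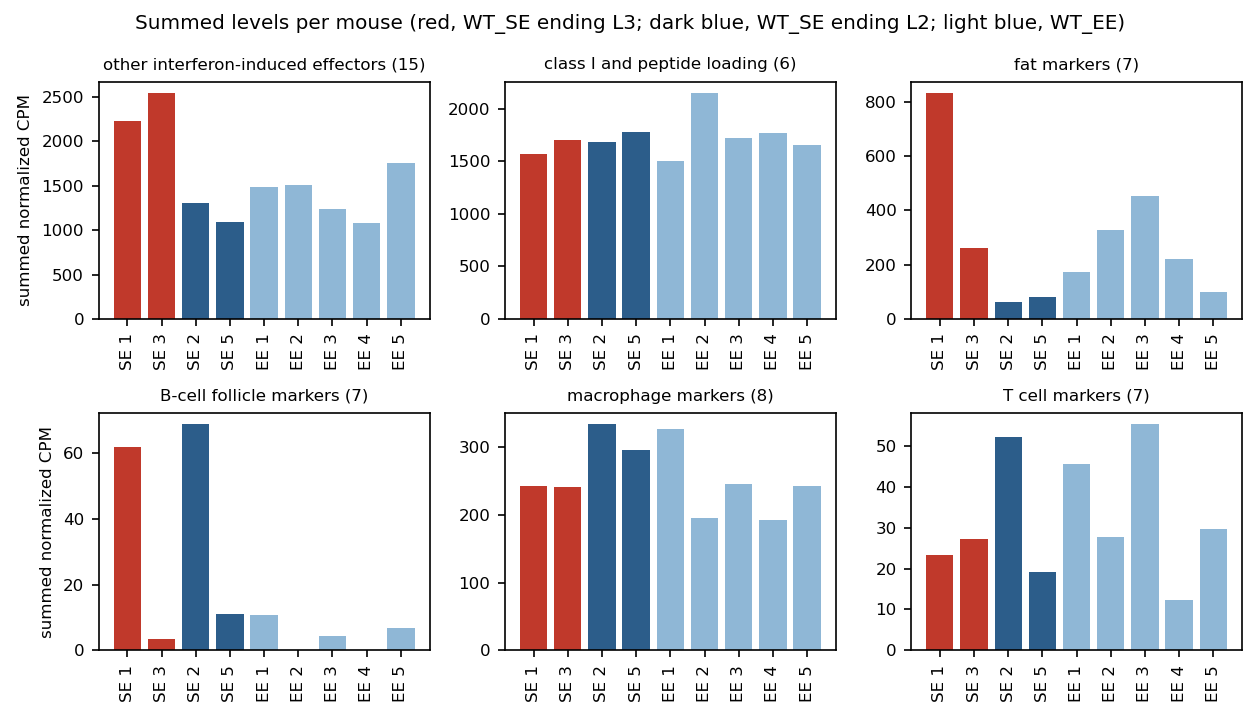
Bars give the summed normalized CPM per mouse of 2 groups of the 43 genes and of 4 marker lists, with the number of genes in parentheses. The 15 other effectors sum to 2224 and 2545 CPM in WT_SE mice 1 and 3 and to at most 1754 CPM elsewhere, whereas the class I sum lies between 1502 and 2151 CPM and the fat sum is highest in WT_SE mouse 1.

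The WT_EE mice also differed among themselves, in libraries that share the L2 ending. Mouse 5 was the highest of the 5 for 19 of the 43 genes, against 17.9% of all genes, and mouse 4 the lowest for 25, against 17.7%. Mouse 5 was the highest for 11 of the 15 other effectors and for all 8 genes adjusted p-values had named within WT_SE, a comparison that used no WT_EE mouse. Mouse 4 was the lowest for 10 of the 15 effectors, 5 of the 5 GTPases and 4 of the 5 immunoproteasome genes, but for 1 of the 6 class I genes. The 15 effectors summed to 1485, 1507, 1244, 1075 and 1754 CPM in WT_EE mice 1 to 5, the GTPases to 300.02, 317, 308, 193 and 384 CPM, and the immunoproteasome to 583, 585, 615, 401 and 671 CPM. T cell markers were lowest in mouse 4 too, at 12.2 CPM against 27.8 to 55.3 CPM, and macrophage markers were 193 CPM there and 195 CPM in mouse 2. These mice carry no label that sets them apart, so no test was made.

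The rest of the pathway was followed in 82 further genes listed by function, of which 74 were tested. In WT_EE 13 were called lower and 3 higher, where 3.34% and 4.31% of all genes were, so that the higher calls lie near the share over all genes. The median log2 fold change was -0.16, and none had an adjusted p under 0.05. Those lower included Nmi, Dhx58, Ifi204, Cmpk2, Ddx60, Samd9l, Sp100, Lgals3bp, Phf11d, Slfn2, Slfn5 and Ifi27l2a. In Dhx58, a relative of Ifih1, and Ifi204, a DNA sensor, the groups did not overlap. These 2 of 74 genes lie near the share of 2.58% found over all genes. Dhx58 read 19.5 to 37.2 CPM in WT_SE and 6.97 to 18.5 CPM in WT_EE (log2 fold change -0.995 ± 0.39, exact permutation p of 0.00794), with WT_EE mice 2 and 4 at or under the floor. Ifi204 read 10.9 to 25.1 CPM and 3.09 to 10.8 CPM (-1.18 ± 0.46, exact permutation p of 0.00794), with values near the floor in WT_EE.

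The genes called higher were Ifnlr1, Irgm2 and H2-T23. Ifnlr1, the chain that makes epithelium respond to type III interferon, read 28.7, 16.7, 10.1 and 10.9 CPM in WT_SE mice 1, 2, 3 and 5 and 28.1, 27.9, 32.8, 30.9 and 27.8 CPM in WT_EE. Only WT_SE mouse 1 reached the level of the WT_EE mice. WT_SE mouse 3 was at the floor of 3 counts and mouse 5 had 4 counts. The log2 fold change of Ifnlr1 was 0.78 ± 0.36 over all mice and 1.09 with the L2 libraries (unadjusted p of 0.0224). H2-T23, a class I molecule that presents to natural killer cell receptors, read 3.38 to 13.1 CPM in WT_SE and 32.4, 31.4, 19.7, 3.09 and 34.7 CPM in WT_EE, where mouse 4 lay with the WT_SE mice. For H2-T23, WT_SE mice 2 and 3 and WT_EE mouse 4 were at or under the floor of 3 counts. With the L2 libraries alone, 1 of the 74 genes was called lower and 4 higher, where 1.5% and 2.47% of all genes were. Within WT_SE, Oasl1, Ddx60 and Ifi27l2a of these genes were higher in mice 1 and 3 after adjustment, and 17 were higher and 6 lower at an unadjusted p-value under 0.05, where 2.35% and 2.51% of all genes were. The lower genes were the 2 transcription factors Irf3 and Irf8, 1 effector, 1 GTPase and 2 class I and peptide loading genes.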

How the data were processed

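Per the labels and the paper's methods, the authors made QuantSeq 3′ libraries with unique molecular identifiers and aligned the reads to GRCm38.p6. The submitters' processing notes name fastp 0.20.0, STAR 2.7.0f, featureCounts 1.6.0 of Subread and UMI-tools, while the paper names STAR 2.7.2a. Strand and multimapping settings are not given in the sources used here. The deposited values are raw counts of molecules per gene and mouse, as whole numbers. Symbols came from GENCODE M21.

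Counts of the 17441 genes that reached 4 CPM in any library were compared in R 4.3.3 with edgeR 4.0.16 (TMM, quasi-likelihood F test, environment as the only term). A call is an unadjusted p-value under 0.05, the study's limit, and adjusted p-values are Benjamini-Hochberg over all genes tested. The common biological coefficient of variation was 15.1%. Single genes were also compared by two-sided exact permutation tests of normalized CPM over 126 splits. CPM + 1 was used for log2 levels. Values in every mouse are given for called genes, both receptor chains and the most counted gene of each role. Isg15, Ifi44, Rsad2, Iigp1, Irf3, Irf8, single marker genes, and the class II and fat genes were looked at after their values were seen. The genes and lists were chosen with earlier results of these data known. Alternatives used DESeq2 1.42.0, limma 3.58.1, other filters and normalizations, a block by mouse number, the ending of the library name and each mouse left out, and the comparison within WT_SE was added after seeing the data. The fits were tested on simulated data. Promoter windows came from RefSeq (GRCm38.p6). Not every gene of the wider pathway list is reported here.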

Additional observations from a re-analysis of the deposited data

Results flagged for a closer look

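Among 36 genes examined in each group, 72 groups in all, 4 had a mouse far from the others of its group by Dixon's criterion, which chance alone meets in about 1 in 20 groups. Ifnar1 was high in WT_EE mouse 4, at 34.0 CPM against 17.4 to 19.4 CPM in the other WT_EE mice. Bst2 was high in WT_EE mouse 5, at 57.8 CPM against 34.0 to 38.3 CPM. B2m was high in WT_EE mouse 2, at 679.7 CPM against 514 to 539.7 CPM. Ifi204 was low in WT_EE mouse 4, at 3.09 CPM against 8.74 to 10.8 CPM, which is under the floor of 3 counts.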

How the results depend on the processing

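Groups of 4 and 5 mice and totals of at most 454043 counts limit what can be called, and levels at or under 3 counts were not interpreted. Of the 43 genes, 10 were called lower and 1 higher in WT_EE. Lower calls numbered 5 with filterByExpr, 5 with DESeq2, 5 with limma-voom, 0 with the name ending as a covariate, 0 with only the L2 libraries and 0 at an adjusted p under 0.05. Higher calls numbered 3, 3 and 0 in the last 3 of these. The filterByExpr filter left 38 of the 43 genes to test. Over all genes, lower calls numbered 353 of 8590 with filterByExpr, 269 of 17441 with DESeq2 and 611 of 17441 with limma-voom. With the ending they numbered 290 of 17441, and with the L2 libraries 257 of 17097. The median log2 fold change became 0.10 with the ending and 0.11 with the L2 libraries, which also left 3 genes with no overlap. Leaving out each mouse gave 1 to 16 lower calls, 1 to 2 higher calls, medians from -0.36 to -0.09 and 0 to 3 genes with no overlap. Over all genes these fits gave 346 to 715 lower and 553 to 954 higher calls. Fewer mice make a lack of overlap more frequent by chance. Its share over all genes was not computed for the L2 libraries or with a mouse left out. Of the other pathway genes, 13 lower and 3 higher, 6 and 1 were called with filterByExpr and 1 was called higher with DESeq2. With the ending, and with the L2 libraries, 1 was called lower. Leaving out each mouse gave 2 to 18 lower and 1 to 4 higher. Within WT_SE, the 8 genes with an adjusted p under 0.05 became 0 without the filter, 1 with filterByExpr, 1 with DESeq2, 5 with limma-voom and 0 to 9 with a mouse left out. A lone mouse was then assumed to vary like the others. The 19 unadjusted calls became 13 to 19 with a mouse left out and 17 to 20 otherwise.

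Single log2 fold changes reversed almost only with the library-name ending. With that ending in the model they became 0.31 for Stat2, 0.011 for Irf7, 0.31 for Ifit2, 0.10 for Ifit3, 0.13 for Usp18, 0.55 for Bst2, 0.038 for Ddx60, 0.14 for Phf11d and 0.36 for Ifi27l2a. With the L2 libraries they became 0.32, 0.024, 0.32, 0.11, 0.14, 0.57, 0.051, 0.15 and 0.38 in this order, and 0.013 for Sp100. Both settings take the environment effect from the same mice and are no separate checks. That of Ifit1 was -0.012 with upper quartile normalization and -0.14 to 0.21 with a mouse left out, and that of Irf1 was -0.012 to 0.12 with a mouse left out. Of 653 single-gene values, 485 kept direction and call, 140 lost the call, 4 gained one and 24 reversed. Without WT_SE mouse 3, 22 of the 27 called genes lost the call, and without mouse 1, 16 did. Upper quartile normalization moved the median of all genes to -0.04.

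The mouse number as a replicate block gave 8 lower calls and 1 higher among the 43 genes, 9 and 3 among the other pathway genes and a median of -0.16. Tap2 then had a log2 fold change of 1.11 and an adjusted p of 0.0487 from edgeR, against 0.222 without the block. The block lost the call of 7 of the 27 called genes. Mice with the same number in both groups are different animals, their deviations correlated at -0.02 to 0.12, and WT_SE mouse 1 correlated best with WT_EE mouse 5, so the numbers were not taken as pairs. The cause of the changes under other settings was not tested.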

Other observations

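Genes outside the interferon lists also separated the WT_SE pairs. Of the 41 genes with an adjusted p under 0.05 in edgeR, 27 were higher and 14 lower in mice 1 and 3. The class II genes H2-Ab1, H2-Aa and H2-DMb1 were among the lower, of which H2-Ab1 and H2-Aa encode chains that present extracellular peptides. H2-DMb1 read 20.9 and 23.7 CPM in mice 1 and 3, 100.2 and 128 CPM in mice 2 and 5, and 60.4, 73.2, 74.3, 18.6 and 44.0 CPM in WT_EE mice 1 to 5, so that WT_EE mouse 4 lay with mice 1 and 3. Adiponectin (Adipoq), made by fat cells, read 183 and 50.7 CPM in mice 1 and 3, 0 CPM in mice 2 and 5, and 15.1, 31.4, 63.4, 21.6 and 0 CPM in WT_EE. Mptx1, a pentraxin of the intestinal epithelium, read 18.3 and 13.5 CPM in mice 1 and 3, but 19.5 CPM in mouse 2 against 495 CPM in mouse 5, so that it did not follow the pairs. Iigp1, an interferon-inducible GTPase that was not in the lists, was also among the lower. It read 39.2 and 40.6 CPM in mice 1 and 3 and 83.5 and 150 CPM in mice 2 and 5 (adjusted p of 0.0304 from edgeR).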
